A study of Mus musculus with 12 samples.

Results

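*Sgk1* and 7 other genes were followed across bone marrow neutrophils and macrophages of the mouse. All but *Sgk3*, a relative of *Sgk1*, are known to respond to, or to mediate the response to, glucocorticoid hormones. The genes were *Nr3c1*, *Sgk1*, *Sgk3*, *Tsc22d3*, *Fkbp5*, *Per1*, *Zfp36* and *Anxa1*. They were taken by gene symbol, and all 8 were found among the 52636 genes of both deposited count tables. The study asked how CGRP, a neuropeptide released by sensory nerve endings, changes gene expression in these cells. Neutrophils and monocytes were enriched with EasySep kits from the bone marrow of young adult C57BL/6J mice. The neutrophils were used fresh in RPMI, whereas the monocytes were first cultured for 3 days in DMEM/F12 with M-CSF at 10 ng/ml, which drives monocytes to become macrophages, and the labels call them monocyte/macrophage. Each cell type then received 1 nM CGRP or saline (PBS) for 4 h, with 3 libraries per group and 12 in all. Both media held fetal bovine serum, and no glucocorticoid is named among the agents added. Cell type, medium and time in culture differ together between the 2 tables. Nothing in the labels says that libraries of a group came from separate mice or cultures, so that p-values measure the spread between these libraries, which may be technical.

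Glucocorticoids cross the cell membrane and bind the glucocorticoid receptor, which is held ready by heat shock proteins, moves to the nucleus and binds DNA at paired, inverted hexamers called glucocorticoid response elements. *Sgk1*, encoding a serine/threonine kinase related to AKT that regulates ion channels and FOXO factors, is a classic target of the receptor. Several of these genes, *Sgk1* and *Per1* among them, are also known to respond to other signals, including cyclic AMP, the second messenger of the CGRP receptor. In myeloid cells glucocorticoids are known for restraining inflammatory genes, in part through *Tsc22d3*, *Zfp36* and *Anxa1*.

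The starts of these genes were searched for the response elements, and 3 stretches are shown, the one with the full glucocorticoid element and those of both *Per1* starts. RefSeq on GRCm38.p6 gave 14 windows for 6 of the genes, each running from 250 bases before to 50 bases after a start site, and none for *Sgk3* or *Nr3c1*. The glucocorticoid response element, here AGAACA, any 3 bases and then TGTTCT, which reads the same on both strands, was found in 1 of the 14 windows, ahead of the *Sgk1* start site at position 21993890 of chromosome 10. The element lies at chr10:21993701-21993715, 189 bases before that start. Among all 32851 windows of the same length it occurred in 3 (0.00913%), and the other windows belong to *Acnat2*, which had 0 counts, and to *Gm35041*, which is not in the tables. The palindromic cyclic AMP response element TGACGTCA was in none of the 14 windows, against 1.79% of all windows. Its shorter form TGACG, on either strand, was in 4 of the 14 (1 of *Sgk1*, both of *Per1* and 1 of *Tsc22d3*), against 20.8% of all. The lines give the 250 bases before the *Sgk1* start (chr10:21993640-21993889) and 60 bases ahead of each *Per1* start (chr11:69098699-69098758 and chr11:69099992-69100051), all on the plus strand and 5′ to 3′. Capitals mark the full glucocorticoid response element in *Sgk1* and TGACG in *Per1*.
Sgk1: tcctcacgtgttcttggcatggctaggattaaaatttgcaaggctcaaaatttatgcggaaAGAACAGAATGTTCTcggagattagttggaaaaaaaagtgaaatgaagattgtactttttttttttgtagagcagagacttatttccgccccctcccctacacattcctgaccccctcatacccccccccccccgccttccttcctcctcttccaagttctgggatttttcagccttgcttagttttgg
Per1, first start: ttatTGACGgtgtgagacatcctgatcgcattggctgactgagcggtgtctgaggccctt
Per1, second start: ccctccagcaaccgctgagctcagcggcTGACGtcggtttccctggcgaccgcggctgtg
None of these stretches overlaps an annotated exon of its gene. A match is a description of letters, and since the reads lie near the 3′ end of transcripts, the 6 *Sgk1* start windows cannot be told apart by expression.

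The total count per library lay between 2002559 and 3631989. Levels are given as CPM, counts scaled to library size with TMM over the 12 libraries, and a floor of 3 counts is 0.826 to 1.5 CPM of the library total before TMM, which covers counting error only. The markers matched the labelled cell types. The 12 neutrophil markers summed to between 144000 and 221000 CPM in the neutrophil libraries and to between 286 and 420 CPM in the macrophage libraries. All 12 macrophage markers passed as higher in saline macrophages than in saline neutrophils, where 32.5% of all 10694 genes did. The neutrophil libraries also held red cell transcripts (5750 to 7350 CPM over 6 markers, led by *Hbb-bs*) and eosinophil, basophil and mast cell transcripts (899 to 1140 CPM over 6 markers, led by *Prg2*). In macrophage libraries the defining B cell genes *Cd79a*, *Ms4a1* and *Pax5* and the T cell genes *Cd3e* and *Cd3g* were at 0 counts, whereas *Ighm* and *Cd79b* of the B cell list were present (96.3 ± 14.6 and 31.8 ± 0.693 CPM with saline; SD, n = 3) and *Cd3d* had 0 to 3 counts. In bulk libraries, fewer cells of a type and less RNA per cell cannot be told apart.

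In macrophages, CGRP raised *Sgk1* and lowered *Nr3c1* and *Anxa1*, so that the kinase gene and the gene of the receptor that is known to induce it moved in opposite directions. In neutrophils, only *Anxa1* passed the test among the 8 genes, and it fell. Of the 7 genes that had enough counts to be tested in macrophages, 1 rose and 2 fell (limma-voom, Benjamini-Hochberg adjusted p under 0.05), where 3.46% of the 9393 genes tested rose, 3.97% fell and 7.43% passed in either direction. Of the 8 tested in neutrophils, 0 rose and 1 fell, where 1.51% of 9819 rose, 1.02% fell and 2.53% passed. Before adjustment 5 of the 8 were under 0.05. The share of all genes under 0.05 before adjustment is not given here or below, so such counts have no background. With edgeR and with DESeq2, 0 of the 8 passed in neutrophils and 3 in macrophages. The CGRP and saline libraries did not overlap for 6 of the 8 genes in neutrophils, 3 higher and 3 lower with CGRP, against 17.8% of all genes tested (8.1% higher and 9.69% lower). In macrophages they did not overlap for 6 of the 7 tested, again 3 and 3, against 24.1% (11.6% and 12.5%). On the log2 scale the 8 genes had a median change of -0.067 in neutrophils (0.001 for all genes), and the 7 had one of 0.22 in macrophages (0.005 for all genes). Without the second macrophage CGRP library, 0 of the 8 genes passed in macrophages.

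**Figure D1:**
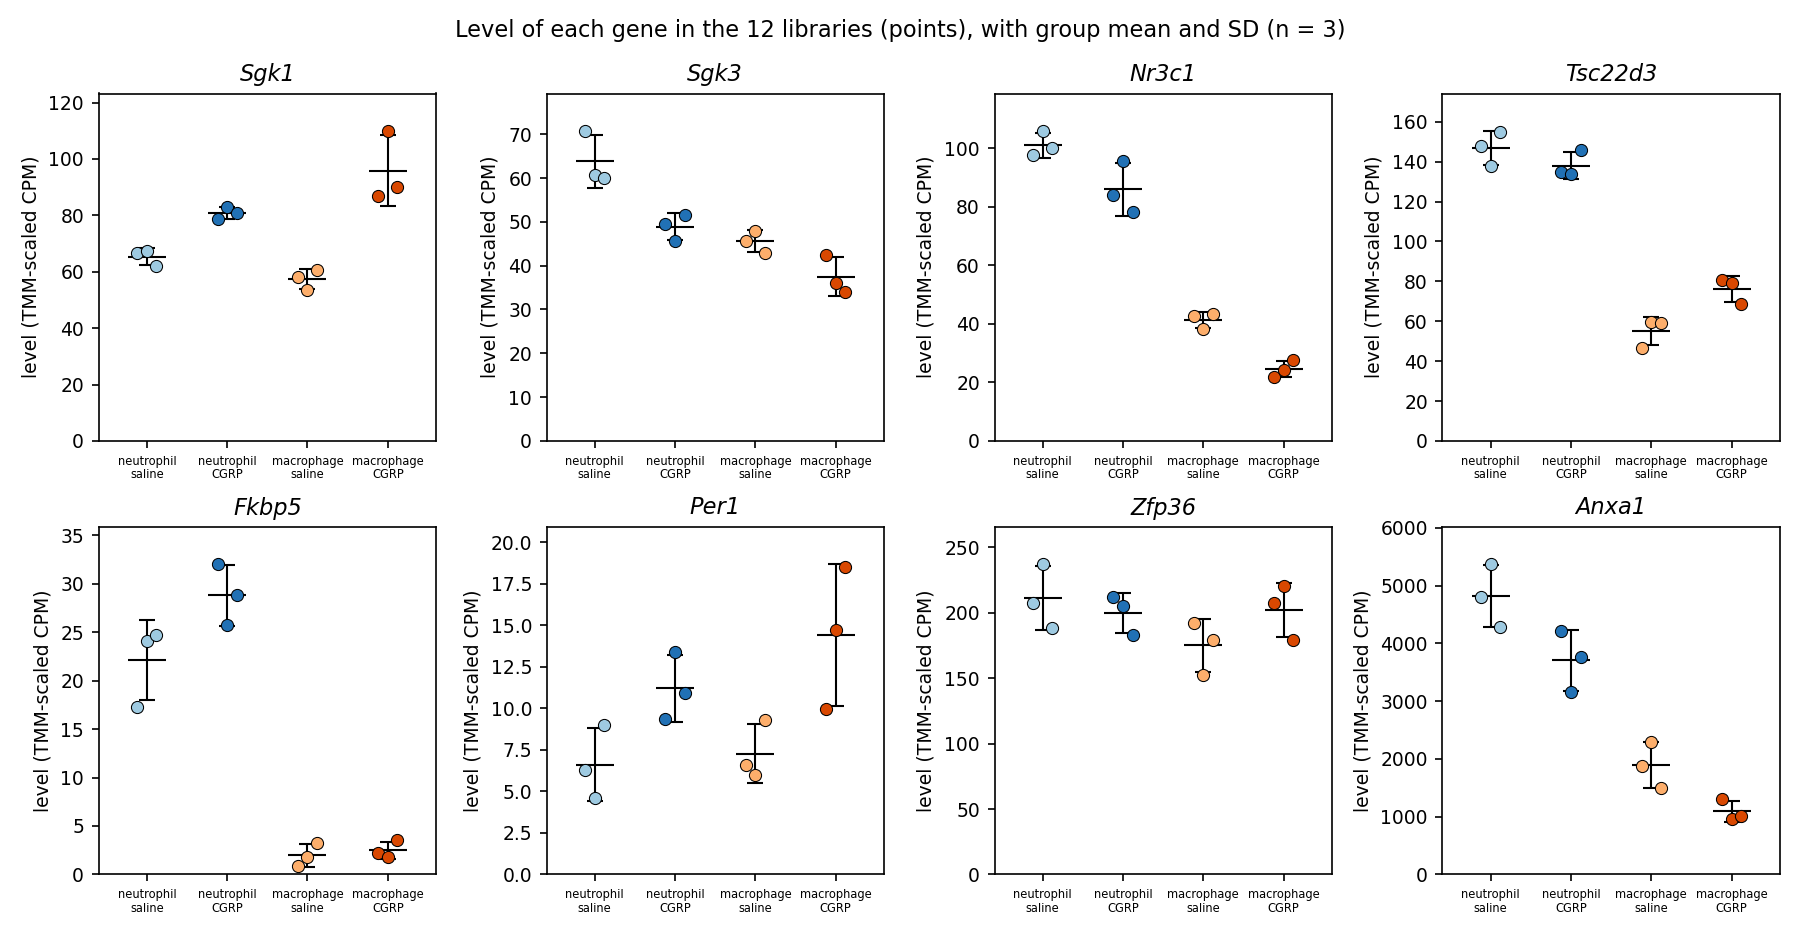
Level of each of the 8 genes in TMM-scaled CPM (vertical axes, each starting at 0) in the 12 libraries, as points, with the mean and SD of each group of 3. In macrophages the 3 CGRP libraries lie above the saline libraries for *Sgk1* (87.0 to 110 against 53.4 to 60.5 CPM) and below them for *Nr3c1* and *Anxa1*.

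*Nr3c1* (chromosome 18, 39410545 to 39519421, minus strand) encodes the glucocorticoid receptor. In macrophages its level was 42.8, 38.2 and 43.3 CPM in the saline libraries and 21.8, 24.3 and 27.5 CPM with CGRP. Every CGRP library lay below every saline library. *Nr3c1* fell 1.70-fold (log2 fold change -0.77, SE 0.18, n = 3 per group, limma-voom adjusted p = 0.0152). Neutrophils held more of it, 101 ± 4.30 CPM in the saline group and 86.0 ± 8.97 CPM in the CGRP group (SD, n = 3). Here too the groups did not overlap, yet the change of -0.22 (SE 0.11) did not pass (limma-voom adjusted p = 0.406). The fall in macrophages passed in all 9 other fits but in 3 of the 6 fits with 1 library left out. It missed without the first saline library and without the first or the second CGRP library, with a highest adjusted p of 0.0806 in limma-voom.

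Among genes for partners of the receptor, 1 passed in each cell type. Of the 18 genes for chaperones, co-regulators and steroid-converting enzymes, 16 could be tested in neutrophils, where 1 rose, and 15 in macrophages, where 1 fell. Over all genes 2.53% and 7.43% passed. Their medians were -0.052 and -0.018 on the log2 scale. The gene that rose in neutrophils was *Hsd11b1*, encoding the enzyme that regenerates active glucocorticoid from its inert 11-keto form, from 224 ± 25.2 to 293 ± 8.95 CPM (SD, n = 3; log2 0.41, SE 0.09, limma-voom adjusted p = 0.0135). The call held in 4 of the 6 fits with 1 library left out. In macrophages *Hsd11b1* had 0 to 7 counts in any library. *Ncoa3*, a coactivator of nuclear receptors, fell in macrophages (log2 -0.65, SE 0.19, limma-voom adjusted p = 0.0490), a call that was lost with DESeq2 and held in 1 of the 6 fits with 1 library left out.

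*Sgk1* (chromosome 10, 21882184 to 21999903, plus strand) carries the full response element printed above. In macrophages its level was 58.3, 53.4 and 60.5 CPM with saline and 87.0, 110 and 90.2 CPM with CGRP. The lowest CGRP library stood well above the highest saline library. *Sgk1* rose 1.67-fold, a log2 fold change of 0.74 (SE 0.15, 95% confidence interval 0.42 to 1.06, limma-voom adjusted p = 0.0053). The neutrophil levels were 66.7, 67.5 and 62.0 CPM in the saline group and 78.7, 82.9 and 80.7 CPM in the CGRP group. The 3 CGRP libraries again lay above the 3 saline libraries, by a smaller margin. The log2 fold change of 0.32 (SE 0.11, 95% confidence interval 0.09 to 0.54) did not pass across all genes (limma-voom adjusted p = 0.154). The macrophage rise passed in all 9 other fits, and without the second CGRP library it was 0.63 with a limma-voom adjusted p of 0.0596.

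*Sgk3* (chromosome 1, 9798107 to 9900845, plus strand) encodes a related kinase that is recruited to endosomes by its phospholipid-binding domain. Saline neutrophils held it at 63.8 ± 6.06 CPM and CGRP neutrophils at 48.9 ± 3.03 CPM (SD, n = 3), and macrophages at 45.6 ± 2.54 and 37.5 ± 4.38 CPM. Its CGRP libraries lay below the saline libraries in both cell types, the opposite side from *Sgk1*. Neither difference passed (log2 -0.38, SE 0.12, limma-voom adjusted p = 0.133 in neutrophils, and -0.27, SE 0.17, adjusted p = 0.414 in macrophages).

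Genes upstream and downstream of these kinases were listed as well. The list held 18 genes, for the kinase SGK2, PDK1, mTORC2 subunits, AKT and GSK3 kinases, NEDD4 ligases, FOXO factors and NDRG proteins. In neutrophils 16 were tested and 0 passed (limma-voom, edgeR and DESeq2). Before adjustment 4 were under 0.05, a cut for which no share of all genes is given. Of 15 tested in macrophages, *Ndrg1* alone passed. Over all genes 2.53% passed in neutrophils and 7.43% in macrophages. *Ndrg1*, whose protein is a widely used substrate of SGK1, fell from 58, 59 and 75 counts with saline to 23, 31 and 13 counts with CGRP (log2 -1.23, SE 0.30, limma-voom adjusted p = 0.0176). Its groups did not overlap, and its direction was opposite to that of *Sgk1*. The call for *Ndrg1* held in 4 of the 6 fits with 1 library left out.

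*Tsc22d3* (chromosome X, 140539528 to 140600659, minus strand) encodes GILZ, a leucine zipper protein that mediates part of the anti-inflammatory action of glucocorticoids. In macrophages its level was 46.8, 59.4 and 59.1 CPM with saline and 80.5, 79.1 and 68.6 CPM with CGRP. The groups did not overlap, but the log2 fold change of 0.49 (SE 0.16) missed the threshold (limma-voom adjusted p = 0.0756). It passed in 2 of 9 other fits, those with library quality weights and with all 12 libraries together. Neutrophils held 147 ± 8.48 CPM without and 138 ± 6.61 CPM with CGRP (SD, n = 3), and the groups overlapped (log2 -0.08, SE 0.09, limma-voom adjusted p = 0.799).

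*Fkbp5* (chromosome 17, 28399094 to 28517527, minus strand) encodes FKBP51, a co-chaperone that lowers the hormone affinity of the receptor and closes a short feedback loop. It had 55, 79 and 69 counts in the saline neutrophils and 99, 88 and 66 counts with CGRP. Scaled for depth, this was 22.1 ± 4.13 and 28.8 ± 3.17 CPM (SD, n = 3), and the groups did not overlap. The log2 fold change of 0.41 (SE 0.18) did not pass (limma-voom adjusted p = 0.311). In macrophages *Fkbp5* was near the floor and was not tested, with 3, 6 and 9 counts in the saline libraries and 7, 5 and 7 in the CGRP libraries.

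Among 14 relatives of these 2 genes, 11 were tested in neutrophils and 0 passed in limma-voom, edgeR or DESeq2, with 0 under 0.05 before adjustment. Of 12 tested in macrophages, *Tsc22d4* rose by 0.56 on the log2 scale (SE 0.15, limma-voom adjusted p = 0.0285) and *Tsc22d1* fell by 1.08 (SE 0.28, adjusted p = 0.0239). Both encode leucine zipper proteins of the same family as GILZ. Their calls held in 2 and 4 of the 6 fits with 1 library left out. Of all genes, 2.53% passed in neutrophils, 3.46% rose in macrophages and 3.97% fell there.

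*Per1* (chromosome 11, 69095217 to 69109960, plus strand), which carries TGACG ahead of both of its starts, encodes a repressor of the circadian clock that is also induced acutely by hormones. It had 20, 15 and 25 counts in saline neutrophils and 29, 46 and 25 with CGRP. In macrophages it had 23, 20 and 26 counts without CGRP and 32, 40 and 37 after it. After scaling, the CGRP libraries lay above the saline libraries in both cell types, but only narrowly. The log2 fold changes of 0.84 (SE 0.29, 95% confidence interval 0.23 to 1.44) in neutrophils and 0.93 (SE 0.30, 0.29 to 1.58) in macrophages were of like size. Neither passed across all genes (limma-voom adjusted p = 0.168 and 0.0793), and the macrophage value passed in 3 of 9 other fits. Of the 18 other clock genes, 11 were tested in neutrophils and 0 passed with any of limma-voom, edgeR and DESeq2 (1 under 0.05 before adjustment). Of 12 tested in macrophages, *Csnk1d*, encoding a kinase that phosphorylates PER proteins, rose by 0.59 (SE 0.14, limma-voom adjusted p = 0.0161), and *Bhlhe41*, encoding a clock repressor, fell from 32, 38 and 62 counts to 8, 9 and 5 (log2 -2.14, SE 0.46, adjusted p = 0.00834). These calls held in 2 and 5 of the 6 fits with 1 library left out. The shares of all genes that passed were 2.53% in neutrophils and 7.43% in macrophages.

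*Zfp36* (chromosome 7, 28376784 to 28380253, minus strand) encodes tristetraprolin, which binds AU-rich elements in messenger RNAs and sends them to decay. Its level was 211 ± 24.5 CPM in saline and 200 ± 15.2 CPM in CGRP neutrophils, and 175 ± 20.3 and 202 ± 20.9 CPM in macrophages (SD, n = 3). The groups overlapped in both cell types, and the log2 fold changes were -0.05 (SE 0.09, 95% confidence interval -0.25 to 0.14) and 0.22 (SE 0.14, -0.08 to 0.52), with limma-voom adjusted p-values of 0.879 and 0.425. The genes of related proteins and of the decay machinery formed a list of 10, with 0 of 10 passing in either cell type in limma-voom, edgeR or DESeq2, and 0 and 1 under 0.05 before adjustment, where 2.53% of all genes passed in neutrophils and 7.43% in macrophages.

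Some transcripts that such proteins are known to bind passed in macrophages, in both directions. Of 17 cytokine and related transcripts known to carry AU-rich elements, 7 could be tested there, 2 rose and 4 fell, where 3.46% of all genes rose and 3.97% fell, with a median of -1.579 against 0.005 for all genes. *Il1b*, encoding interleukin-1β, went from 12, 14 and 15 counts to 198, 154 and 100 (log2 3.71, SE 0.29, limma-voom adjusted p = 6.41e-07). *Ier3*, an early response gene linked to cell survival, rose by 1.39 (SE 0.21, adjusted p = 0.000417). The chemokine genes *Ccl2*, *Ccl3* and *Ccl4* fell by 2.05, 1.58 and 1.87 (SE 0.23, 0.24 and 0.21, limma-voom adjusted p = 2.04e-05, 0.000512 and 2.3e-05). *Tnf* went from 24, 13 and 10 counts to 3, 3 and 1 (limma-voom adjusted p = 0.0149), at the floor with CGRP, and passed in 2 of the 6 fits with 1 library left out. In neutrophils 9 of the list were tested and *Il1b* alone passed, where 1.51% of all genes rose. It went from 92.3 ± 6.77 to 190 ± 26.5 CPM (SD, n = 3; log2 1.06, SE 0.11, limma-voom adjusted p = 3.22e-06).

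*Anxa1* (chromosome 19, 20373428 to 20390944, minus strand) encodes annexin A1, a phospholipid-binding protein that neutrophils store and release and that acts through formyl peptide receptors. In macrophages its level was 1880, 2290 and 1500 CPM with saline and 1300, 957 and 1010 CPM with CGRP. In neutrophils it was 4800, 5370 and 4280 CPM with saline and 4210, 3160 and 3770 CPM with CGRP. Every CGRP library lay below every saline library of its cell type, narrowly so in neutrophils. *Anxa1* fell 1.72-fold in macrophages (log2 -0.78, SE 0.16, 95% confidence interval -1.12 to -0.44, limma-voom adjusted p = 0.0054) and 1.29-fold in neutrophils (log2 -0.36, SE 0.10, -0.57 to -0.16, adjusted p = 0.0491). The neutrophil call stood at the edge of the threshold, held in 4 of 9 other fits and 2 of 6 with 1 library left out, and was absent with edgeR and DESeq2. In macrophages it held in all 9 other fits, and without the second CGRP library the change was -0.69 with a limma-voom adjusted p of 0.0542.

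Summed markers of other cells were compared beside the values of *Anxa1*. In neutrophils the macrophage markers, led by *Lyz2*, summed to 20300 to 25200 CPM in saline and 15400 to 19600 CPM in CGRP libraries. Of the 11 tested, *Lyz2* alone passed (log2 -0.39, SE 0.10, limma-voom adjusted p = 0.0296), and 0 passed with edgeR. Of all genes, 2.53% passed in neutrophils, 1.02% as lower. Without *Lyz2* the sum of the other 11 was 717 to 743 CPM with saline and 658 to 801 CPM with CGRP. Of the platelet markers, 5 were tested and *Itgb3*, encoding an integrin subunit, alone passed. It fell from 107, 111 and 72 counts to 34, 27 and 11 (log2 -1.96, SE 0.26, limma-voom adjusted p = 7.51e-05). The platelet markers, led by *Pf4*, summed to 192 to 203 CPM with saline and 135 to 204 CPM with CGRP, so these sums overlapped. Without *Pf4* the sums, of which *Itgb3* is a part, were 51.6 to 59.9 and 27.2 to 42.4 CPM and did not overlap. The B cell markers, led by *Ighm*, summed to 681 to 717 and 615 to 633 CPM (78.8 to 92.5 and 87.6 to 93.8 CPM without *Ighm*). The T and NK cell markers, led by *Nkg7*, summed to 117 to 133 and 84.7 to 111 CPM (20.1 to 24.7 and 16.5 to 24.4 CPM without *Nkg7*, which overlap). Of these lists 5 and 2 genes were tested and 0 passed (limma-voom adjusted p = 0.259 for *Ighm* and 0.198 for *Nkg7*). In macrophages the neutrophil markers, led by *S100a8*, summed to 286 to 375 CPM with saline and 394 to 420 CPM with CGRP. Without *S100a8* the sums were 179 to 187 and 214 to 261 CPM. Of 7 tested, 0 passed, where 7.43% of all genes did. The B cell markers summed to 119 to 144 and 102 to 116 CPM (31.1 to 32.5 and 37.1 to 39.7 CPM without *Ighm*). The part of these other cells in the changes of the 8 genes was not tested.

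Other annexins, S100 partners and formyl peptide receptors formed a list of 13, set here beside 2.53% of all genes passing in neutrophils and 7.43% in macrophages. In neutrophils 11 were tested and *Anxa2*, encoding a related annexin, alone passed, with a fall of 0.33 on the log2 scale from 1500 ± 121 to 1180 ± 78.2 CPM (SD, n = 3; SE 0.08, limma-voom adjusted p = 0.0258). The call was lost with edgeR and in 3 of the 6 fits with 1 library left out. In macrophages 10 were tested and *Pla2g4a*, encoding the cytosolic phospholipase A2 that releases arachidonic acid, fell from 47, 47 and 44 counts to 17, 13 and 11 (log2 -1.43, SE 0.29, limma-voom adjusted p = 0.00544).

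**Figure D2:**
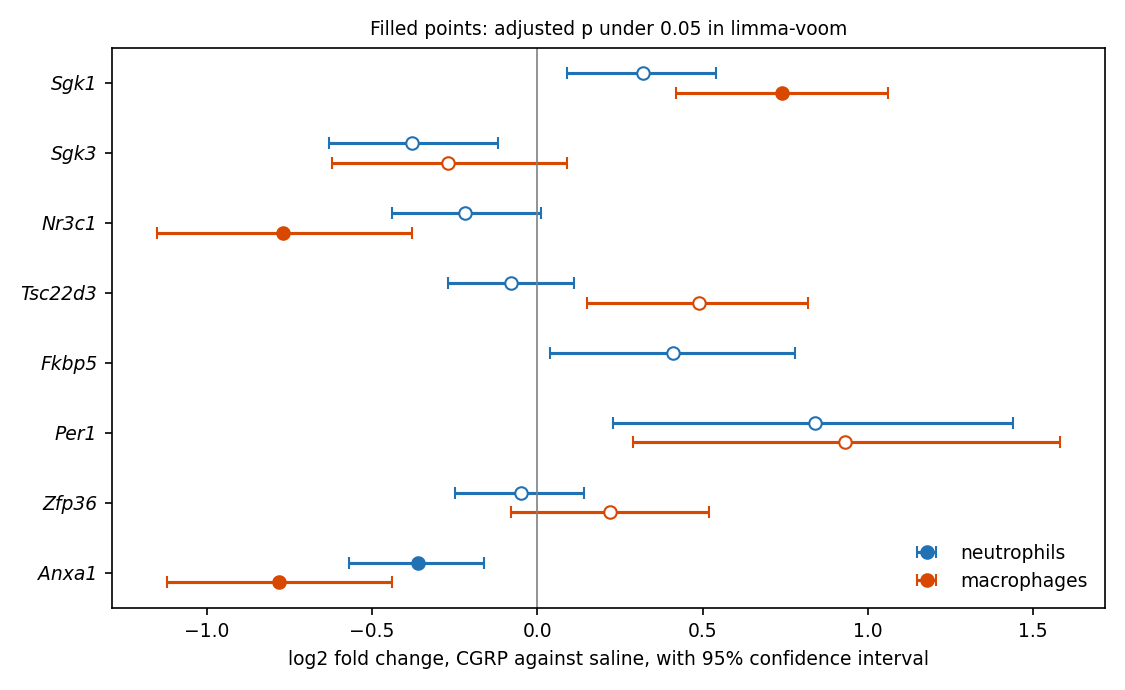
Log2 fold change of each gene, CGRP against saline, with its 95% confidence interval (horizontal axis) in neutrophils and macrophages, from limma-voom, where filled points have an adjusted p under 0.05 and *Fkbp5* has no macrophage value. *Sgk1* (0.74), *Nr3c1* (-0.77) and *Anxa1* (-0.78 and -0.36) are filled, and the intervals of the 2 cell types overlap for each gene with both values except *Tsc22d3*.

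The difference between the CGRP effects of the 2 cell types was tested itself, as an interaction over all 12 libraries. For 0 of the 8 genes did it pass, where 2.36% of 10694 genes did (limma-voom), and 0 passed with edgeR and with DESeq2. Before adjustment *Sgk1*, *Nr3c1* and *Tsc22d3* were under 0.05, a cut for which no share of all genes is given. The effect in macrophages minus that in neutrophils was 0.43 for *Sgk1* (SE 0.18, limma-voom adjusted p = 0.266), -0.54 for *Nr3c1* (SE 0.20, adjusted p = 0.209) and 0.58 for *Tsc22d3* (SE 0.18, adjusted p = 0.0938). For *Anxa1* it was -0.41 (SE 0.20, limma-voom adjusted p = 0.381). *Tsc22d3* passed in 1 of 8 other fits, with library quality weights (0.66, limma-voom adjusted p = 0.0176). A difference in response between the cell types was therefore not shown for any of the 8 genes by the planned test.

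Without CGRP, most of these genes were lower in macrophages than in neutrophils. Comparing the saline groups, 5 of the 8 genes passed as lower and 0 as higher, where 35.4% of all 10694 genes passed as lower and 32.5% as higher. The steepest step was that of *Fkbp5*, with a log2 difference of -3.59 (SE 0.42, limma-voom adjusted p = 7.96e-08). *Tsc22d3* was 2.69-fold, *Anxa1* 2.57-fold, *Nr3c1* 2.45-fold and *Sgk3* 1.40-fold lower (limma-voom adjusted p = 7.67e-10, 8.44e-09, 8.27e-09 and 0.00277). *Sgk1* (log2 -0.19, SE 0.13, adjusted p = 0.188), *Per1* (0.16, SE 0.33, adjusted p = 0.683) and *Zfp36* (-0.27, SE 0.12, adjusted p = 0.0501) did not pass in limma-voom. *Zfp36* passed in 4 of 8 other fits and in 6 of 12 with 1 library left out, and 6 of the 8 genes passed with DESeq2. Cell type, medium and culture time cannot be told apart here.

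Over the 4 groups, the mean level of *Sgk1* ran from saline macrophages (57.4 ± 3.63 CPM) through saline neutrophils (65.4 ± 2.96) and CGRP neutrophils (80.8 ± 2.14) to CGRP macrophages (95.8 ± 12.6; SD, n = 3 each). The difference between the saline groups did not pass, and no test was run between the CGRP groups. *Nr3c1* ran in another order, from CGRP macrophages (24.6 ± 2.86 CPM) through saline macrophages (41.4 ± 2.83) and CGRP neutrophils (86.0 ± 8.97) to saline neutrophils (101 ± 4.30). *Anxa1* followed the order of *Nr3c1*, from 1090 ± 181 and 1890 ± 395 CPM in macrophages to 3710 ± 528 and 4820 ± 544 CPM in neutrophils.

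A wider list of 31 genes known to be induced by glucocorticoids was set beside the 8 genes. In macrophages 25 were tested, 10 rose and 1 fell, where 3.46% of all genes rose and 3.97% fell, and the median change was 0.348 on the log2 scale against 0.005 for all genes. In neutrophils 24 were tested, 3 rose and 1 fell, where 1.51% and 1.02% of all genes did, with a median of -0.063 against 0.001. With DESeq2, 3 of these 4 calls were made in neutrophils, without that of *Dusp1*. The count of 10 was 6 with library totals in place of TMM, and 6 also without the first saline, the second CGRP or the third CGRP macrophage library. The list was written from general knowledge but with earlier results of these data known, so its counts are not independent evidence. Many of its genes answer to other signals as well.

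*Tgm2* and *Il1r2* rose in both cell types. *Tgm2*, encoding tissue transglutaminase, went from 79.2 ± 7.24 to 363 ± 61.5 CPM in macrophages (SD, n = 3; log2 2.19, SE 0.15, limma-voom adjusted p = 1.75e-07) and from 53.6 ± 7.18 to 148 ± 11.7 CPM in neutrophils (log2 1.48, SE 0.11, adjusted p = 7.16e-08). *Il1r2*, encoding the decoy receptor of interleukin-1, went from 150 ± 20.0 to 474 ± 59.7 CPM in neutrophils (log2 1.67, SE 0.10, limma-voom adjusted p = 1.41e-09). In macrophages it was low, with 7, 9 and 9 counts in saline libraries and 40, 34 and 17 in CGRP libraries (log2 2.09, SE 0.38, limma-voom adjusted p = 0.00204).

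The other 8 genes of the list that rose in macrophages had varied roles. *Cdkn1a*, encoding the cell cycle inhibitor p21, rose by 0.95 (SE 0.13, limma-voom adjusted p = 0.000221) and *Rgs2*, a brake on G protein signalling, by 0.85 (SE 0.15, adjusted p = 0.00139). *Cxcr4*, the receptor of CXCL12, rose by 1.43 (SE 0.26, limma-voom adjusted p = 0.00238). *Ddit4*, encoding the mTORC1 inhibitor REDD1, had 2, 6 and 1 counts in saline libraries and 33, 16 and 13 in CGRP libraries (limma-voom adjusted p = 0.00188). *Cebpd*, *Glul*, *Angptl4* and *Txnip*, for a transcription factor, glutamine synthetase, an inhibitor of lipoprotein lipase and a thioredoxin-binding protein, rose by 1.11, 0.58, 0.56 and 0.53. The limma-voom adjusted p-values of these 4 lay between 0.0285 and 0.0376, and each held in 1 or 2 of the 6 fits with 1 library left out. *Sesn1*, encoding a stress-induced inhibitor of mTORC1, fell from 221 ± 27.1 to 65.5 ± 3.45 CPM (SD, n = 3; log2 -1.74, SE 0.15, limma-voom adjusted p = 1.64e-06).

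In neutrophils, *Dusp1*, the phosphatase that switches off p38 and JNK, went from 83.8 ± 2.03 to 110 ± 3.55 CPM (SD, n = 3; log2 0.41, SE 0.10, limma-voom adjusted p = 0.0249), a call that held in 6 of 9 other fits, DESeq2 not among them, and in 1 of the 6 with 1 library left out. *Klf4*, a transcription factor of the monocyte lineage, went from 49.9 ± 2.67 to 28.9 ± 4.99 CPM (SD, n = 3; log2 -0.76, SE 0.15, limma-voom adjusted p = 0.00402). In macrophages neither gene passed.

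**Figure D3:**
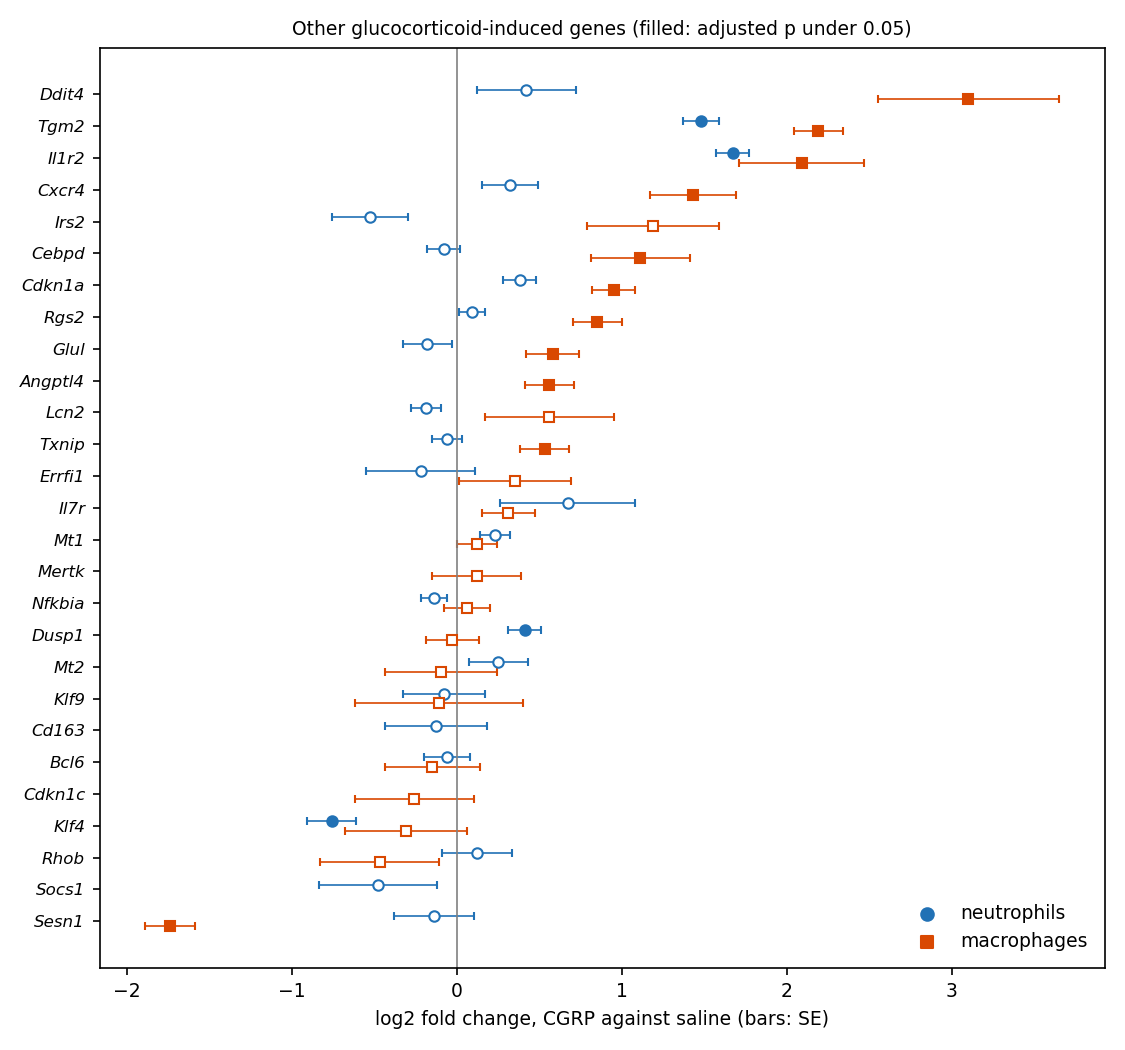
Log2 fold change, CGRP against saline, with its SE (horizontal axis) for each tested gene of the wider glucocorticoid-induced list in neutrophils (circles) and macrophages (squares), where filled points passed in limma-voom. Of 25 macrophage points, 10 are filled to the right of 0 and 1 (*Sesn1*) to the left, and of 24 neutrophil points 3 and 1.

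The genes most like *Sgk1* were those with the highest Pearson correlation with it over the 12 libraries, in log2 CPM centred within each cell type, among 8634 others tested in both. They were *Mpp7* and *Clu* (r = 0.97 each) and *Ets2*, *Cmtm3* and *Slc16a3* (r = 0.96 each). The libraries share their depth and their treatment groups, and the values are given as a description. *Clu*, encoding the extracellular chaperone clusterin, and *Slc16a3*, encoding a lactate exporter, rose in both cell types, by 2.55 and 2.06 in macrophages (limma-voom adjusted p = 0.00508 and 1.97e-06) and by 0.98 and 0.92 in neutrophils (adjusted p = 0.0468 and 2.18e-07). *Ets2*, encoding a transcription factor, rose by 1.60 in macrophages (limma-voom adjusted p = 3.31e-05), *Mpp7*, encoding a scaffold protein of cell junctions, by 1.30 (adjusted p = 0.00737) and *Cmtm3* by 0.42 (adjusted p = 0.0455). With 1 library left out, the neutrophil call of *Clu* held in 2 of 6 fits and its macrophage call in 4, and the macrophage calls of *Mpp7* and *Cmtm3* held in 5 and 1. Without centring, 1 of the 5, *Ets2*, was again among the 5 closest.

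**Figure D4:**
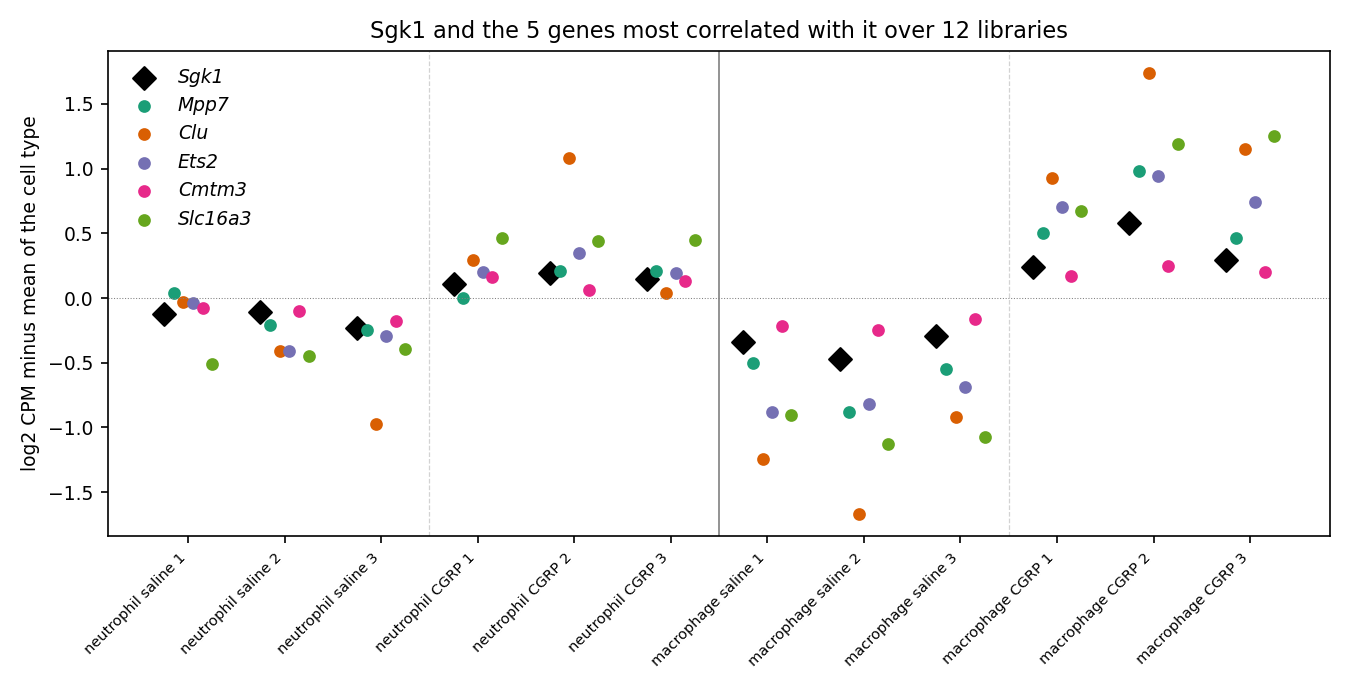
Log2 CPM minus the mean of the cell type (vertical axis) of *Sgk1* (diamonds) and of the 5 genes most correlated with it (circles) in each of the 12 libraries. *Sgk1* lies below 0 in all 6 saline libraries and above 0 in all 6 CGRP libraries, at most 0.58 in the second macrophage CGRP library.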

How the data were processed

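RNA was sequenced from 12 libraries in 4 groups. Per the methods and the submitters' processing notes, reads were freed of PCR copies by unique molecular identifiers, aligned to GRCm38 with STAR and counted per gene with featureCounts, and the authors deposited raw counts, not normalized, in 1 table per cell type. The annotation release, strand setting and any filter are not given in the sources used here. Of the 52636 gene identifiers, 52489 were found in GENCODE vM21, which gave the positions. Genes in the tables that overlap 1 of the 8 had 0 counts in every library, and at most 1.94% of the 31-base sequences in the last 500 bases of any of the 8 occur in another gene.

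Genes were kept by filterByExpr, scaled by TMM and tested by limma-voom (two-sided, Benjamini-Hochberg over all genes tested, threshold 0.05), on the 6 libraries of each cell type and, for the interaction and the saline groups, on all 12. The steps were tested on simulated data. The 8 genes and all lists were chosen with earlier results of these data known. Named were all 8 genes, the 5 genes most correlated with *Sgk1*, overlapping genes and, from the lists, genes with an adjusted p under 0.05 in either CGRP comparison, not all of which are named. *Irs2*, which passed in neither, and markers named for their abundance or absence were named after their values were seen. One marker of the B cell list is not reported here and was left out of its sum. Tried in its place were DESeq2, the quasi-likelihood test of edgeR, size factors from DESeq2, library totals, no filter, at least 10 counts in every library, quality weights, the replicate block, a single fit over 12 libraries and each library left out. Promoter windows came from RefSeq on GRCm38.p6. The versions were limma 3.58.1, DESeq2 1.42.0 and edgeR 4.0.16 in R 4.3.3, and matplotlib 3.10.9 and pandas 2.3.3 in Python 3.11.15.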

Additional observations from a re-analysis of the deposited data

Results flagged for a closer look

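For the genes named in the report, the CGRP effect in macrophages minus that in neutrophils passed the test of the difference (interaction over 12 libraries, limma-voom adjusted p) for those given here, and for none of the 8 genes *Sgk1*, *Sgk3*, *Nr3c1*, *Tsc22d3*, *Fkbp5*, *Per1*, *Zfp36* and *Anxa1*. Over all genes 2.36% passed, and list genes were named for passing in a CGRP comparison, which is not independent of this test. Among transcripts with AU-rich elements, the difference on the log2 scale was 2.66 for *Il1b* (adjusted p = 1.26e-05) and 1.32 for *Ier3* (adjusted p = 0.00207). It was -2.10 for *Ccl2* (adjusted p = 2.94e-05), -1.60 for *Ccl3* (adjusted p = 0.00773) and -2.02 for *Ccl4* (adjusted p = 9.39e-05). Among glucocorticoid-induced genes it was 2.66 for *Ddit4* (adjusted p = 0.0195), 1.19 for *Cebpd* (adjusted p = 0.0315), 0.77 for *Rgs2* (adjusted p = 0.0107) and -1.58 for *Sesn1* (adjusted p = 0.00169), and 1 more gene of that list, *Irs2*, picked out after its value was seen, passed with 1.73 (adjusted p = 0.0451). For *Pla2g4a* it was -1.41 (adjusted p = 0.0446), and for *Tsc22d4* 0.62 (adjusted p = 0.0496). Among the genes most like *Sgk1* it was 1.10 for *Ets2* (adjusted p = 0.0096) and 1.15 for *Slc16a3* (adjusted p = 0.00112). With 1 of the 12 libraries left out in turn, the differences of *Il1b*, *Ier3*, *Ccl2*, *Ccl3*, *Ccl4*, *Sesn1* and *Slc16a3* passed in all 12 fits, that of *Rgs2* in 11, that of *Ets2* in 10 and that of *Ddit4* in 8, whereas those of *Cebpd*, *Pla2g4a* and *Tsc22d4* passed in 2 each.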

How the results depend on the processing

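Of 225 values of the 8 genes in the CGRP comparisons under the alternatives, 224 kept their direction. The exception was *Zfp36* in neutrophils, which ran from -0.13 to 0.02 on the log2 scale with 1 library left out. In neutrophils the number of the 8 genes that passed was 0 in place of 1 with edgeR, DESeq2, at least 10 counts in every library and the replicate block. It was also 0 with the single fit over 12 libraries, in which 137 genes passed in place of 248. With 1 library left out, 138 to 234 neutrophil genes and 0 to 1 of the 8 passed. In macrophages, where 698 genes and 3 of the 8 passed, quality weights gave 1406 genes and 5 of the 8, and the single fit 1050 genes and 5 of the 8. Leaving out 1 library gave 347 to 765 genes, 0 to 3 of the 8, a log2 fold change of 0.63 to 0.81 for *Sgk1*, and 6 to 9 glucocorticoid-induced genes that rose, in place of 10, a count that was 6 with library totals. For the interaction, where 252 genes and 0 of the 8 passed, quality weights gave 520 and 1, and leaving out 1 library gave 149 to 328 genes. The interaction of *Fkbp5*, 0.08, was -0.03 with edgeR, DESeq2 and library totals and ran from -0.42 to 0.47 with 1 library left out. That of *Per1*, 0.10, was -0.01 with library totals and ran from -0.15 to 0.37. Between the saline groups *Per1*, 0.16, ran from -0.08 to 0.38. With library totals the genes higher and lower with CGRP were 150 and 64 in place of 148 and 100 in neutrophils, 245 and 405 in place of 325 and 373 in macrophages, and 88 and 154 in place of 129 and 123 for the interaction. Of the 5 genes most like *Sgk1*, 1 was shared without centring. The causes were not tested. The alternatives for list genes were chosen after seeing the data.

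Groups share replicate numbers in the labels, which do not say whether equal numbers mark paired libraries. The correlations of same-numbered libraries' deviations from their group means were 0.0486, -0.0108 and 0.131 in neutrophils and 0.0514, -0.171 and 0.256 in macrophages. Differently numbered neutrophil libraries had values between -0.133 and 0.0959. For macrophages the corresponding limits were -0.382 and 0.367. With 3 libraries per group, these few correlations cannot decide whether the libraries are paired. With the replicate block, 266 genes passed in neutrophils (236 shared), 915 in macrophages (697 shared) and 295 for the interaction. Of the 8 genes, 0 passed in neutrophils, 4 in macrophages and 6 between the saline groups.

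Depth limits *Fkbp5* in macrophages (3 to 9 counts) and *Per1* (15 to 46 counts). With 3 libraries per group, a p that misses the threshold does not show that groups were alike.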

Other observations

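A list of 13 genes known to be induced by cyclic AMP was also counted. In macrophages 8 were tested and 8 rose, with a median log2 fold change of 3.568, and in neutrophils 11 were tested and 5 rose, with a median of 0.603 (limma-voom). Of all genes 3.46% and 1.51% rose, with medians of 0.005 and 0.001. The list was written with earlier results of these data known, so its counts are not independent evidence.

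Between the saline groups, 16 of the 27 tested genes of the wider glucocorticoid-induced list were lower in macrophages and 9 higher, with a median of -1.004 on the log2 scale, where that of all genes was -0.035 (limma-voom). Of all genes, 35.4% passed as lower in macrophages and 32.5% as higher. Of the 16 tested genes around the SGK kinases, 9 were lower and 1 higher, and of the 12 tested relatives of *Tsc22d3* and *Fkbp5*, 1 was lower and 8 higher. Receptor partners (6 lower and 7 higher of 16), clock genes (4 and 5 of 13) and annexin-related genes (3 and 5 of 11) were spread over both directions. Of the transcripts with AU-rich elements, 7 of 9 were lower and 2 higher, and of the genes of their decay 4 of 10 were lower, 1 was higher and 5 did not pass.

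Platelet markers, led by *Pf4*, summed to 135 to 204 CPM in neutrophils and 628 to 973 CPM in macrophages. Without *Pf4* the order turned. The sums were then 51.6 to 59.9 CPM in saline and 27.2 to 42.4 CPM in CGRP neutrophils. In macrophages they were 2.98 to 6.8 CPM with saline and 5.52 to 11 CPM with CGRP. *Itgb3* is part of these sums and was the only platelet marker that passed in neutrophils (log2 -1.96, SE 0.26, limma-voom adjusted p = 7.51e-05). Its share in the lower neutrophil sums with CGRP was not tested. Red cell markers summed to 19.5 to 26.8 CPM in macrophages, eosinophil, basophil and mast cell markers to 9.31 to 13.2 CPM, and T and NK cell markers to 0.358 to 1.19 CPM.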
